A study of Mus musculus with 4 samples.

Results

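The Sonic hedgehog gene group comprised Shh, the ligand, Ptch1, its receptor, the co-receptors Boc, Cdon and Gas1, the transcription factors Gli1, Gli2 and Gli3, and the antagonist Hhip. These 9 genes were chosen by name and taken from the platform annotation, where they are reported by 23 of 45037 probe sets, and they are 9 of 18193 genes that a probe set names alone. A probe set is a group of short probes for one transcript. RNA came from the dermis of dorsal skin of mouse embryos at stage E15.5, with 2 arrays labelled mutant and 2 labelled control, each from its own embryo. Mutant embryos were KRT14-Cre Ctnnb1(Ex3)fl/+, which carry Cre recombinase under the promoter of keratin 14 and a Ctnnb1 allele whose flanked exon Cre removes. The product, beta-catenin, is the effector of canonical Wnt signalling and is stabilised once that exon is gone. Controls were littermates, whose own genotype the labels do not state. The keratin 14 promoter is active in surface epithelium, whereas dermis was sampled. Krt14 itself gave 247 and 140 on mutant 1 and mutant 2 and 112 and 79.7 on control 1 and control 2, and whether cells with the activated allele were in the samples was not tested. The ages of all groups were the same.

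In Hedgehog signalling, ligand binds Ptch1 at the primary cilium and relieves the inhibition of Smo, and the Gli proteins then switch from repressors to activators of transcription. Ptch1, Gli1 and Hhip are themselves targets in vertebrates, and their RNA is widely used as a readout of the pathway. Ptch1 and Hhip also bind ligand and so limit its spread, while Boc, Cdon and Gas1 present ligand to Ptch1 and are lowered by the pathway in the mouse neural tube. In developing skin, Shh is made by the epithelium of hair placodes and is received both by that epithelium and by the dermal condensate beneath.

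Array names follow the labels, with which the authors' deposited table of called probe sets conflicts. Of 97 probe sets that are higher in mutant by the authors' deposited table, 96 had mutant 2 and control 1 above the other arrays, and all 56 that it lists as lower had mutant 1 and control 2 above. For 0 of its 153 probe sets were the arrays of one label all on one side of the other label. Values are therefore also given by the pairs mutant 2 with control 1 and mutant 1 with control 2, a pairing picked from these data, with no average over a pair and no test between pairs. The arrays had the same trimmed mean signal and median signals of 28.6 to 32.3. They were scanned in the order control 2, mutant 1, control 1, mutant 2, each on a fluidics module of its own. Whether the labels of 2 arrays were exchanged was not tested, and every value by label, with its direction, depends on it. The columns per embryo of the authors' deposited table were not compared with these signals. The scan order also separates the pairs, and its part in any difference was not tested. The instrument records give mouse epidermis as sample type on all 4 arrays, whereas the labels give dermis. Each of the 7 dermal fibroblast markers, among them the collagen gene Col1a1 and the dermal transcription factor gene Twist2, was bright on every array, with a lowest signal of 908.8.

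The stretches before the start sites of Hhip and Gas1 are shown because these genes took opposite sides of the array pairs. RefSeq promoter windows of 300 bases, 250 before and 50 after a start site, were present for 6 of the 9 genes, Gli2, Hhip, Cdon, Gli3, Gas1 and Ptch1, in build GRCm38.p6. The Hhip stretch lies at chr8:80058061-80058258 and the Gas1 stretch at chr13:60177536-60177785, both read from the minus strand, 5′ to 3′. The Gli binding consensus TGGGTGGTC, searched on both strands, was found in 0 of the 6 windows and in 0.253% of 32851 windows of the same length. The shorter GGGTGGNC, which overlaps that consensus and was chosen after the sequences were seen, was found in the Hhip window alone and in 6.29% of all windows. Its match is in capitals, on the opposite strand, and is a description of letters, not a binding site.
Hhip: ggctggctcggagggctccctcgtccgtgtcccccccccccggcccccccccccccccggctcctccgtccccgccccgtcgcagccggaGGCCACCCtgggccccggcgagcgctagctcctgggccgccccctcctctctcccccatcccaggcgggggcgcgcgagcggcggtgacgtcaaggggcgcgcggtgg
Gas1: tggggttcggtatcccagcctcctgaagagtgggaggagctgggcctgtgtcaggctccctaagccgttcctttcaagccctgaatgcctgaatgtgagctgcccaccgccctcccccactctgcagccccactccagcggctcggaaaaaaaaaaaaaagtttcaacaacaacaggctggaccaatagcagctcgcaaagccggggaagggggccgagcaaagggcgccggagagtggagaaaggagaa

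Shh RNA was low and stood apart by array pair, not by label. Its brighter probe set, 1436869_at, gave signals of 12.4 and 82.5 on mutant 1 and mutant 2, against 66.3 and 15.9 on control 1 and control 2. The arrays mutant 2 and control 1 were thus high, and each label held 1 high and 1 low array. The means were 47.5 ± 49.6 in mutant and 41.1 ± 35.6 in control dermis (SD, n = 2 each). The log2 difference, mutant minus control on log2(signal + 16), was 0.05 (95% interval -1.88 to 1.97), with a limma adjusted p of 0.9999. Within the pairs the difference in log2 was 0.26 for mutant 2 minus control 1 and -0.16 for mutant 1 minus control 2. The dim probe set 1427571_at gave 0.460 and 8.79 on the mutant arrays and 2.69 and 1.41 on the control arrays. It had the same order of arrays, but its mean signal was at the 12.7th percentile of all probe sets and it was not tested.

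Ptch1, the receptor and a transcriptional target, also had mutant 2 and control 1 highest in its brightest probe set. That probe set, 1428853_at, gave 1221 and 2071 on mutant 1 and mutant 2 and 2384 and 1440 on control 1 and control 2. Control 1 was the highest and mutant 1 the lowest, and the ratio between arrays of one label was 1.697 in mutant (mutant 2 over mutant 1) and 1.66 in control (control 1 over control 2). The log2 difference by label was -0.22 ± 0.35 (SE, n = 2 per group), and it was -0.20 and -0.24 within the pairs, mutant 2 minus control 1 and mutant 1 minus control 2.

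The other Ptch1 probe sets differed in direction by label. The probe set 1439663_at gave 23.8 and 127 on the mutant arrays and 40.6 and 19.7 on the control arrays. Mutant 2 and control 1 were again the higher arrays, with a gap of 0.51 in log2, and mutant 2 was the highest. Cartilage markers were also highest on mutant 2, and their part in this probe set was not tested. The probe set 1450824_at gave 50.2 and 47.3 on the mutant arrays and 93.7 and 58.9 on the control arrays. Both mutant arrays lay below both controls in this probe set, with a log2 difference of -0.49 ± 0.25 (SE, n = 2 per group; limma adjusted p = 0.9999). The probe sets of Ptch1 thus disagree in direction, from -0.49 to 0.75 in log2.

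**Figure D1:**
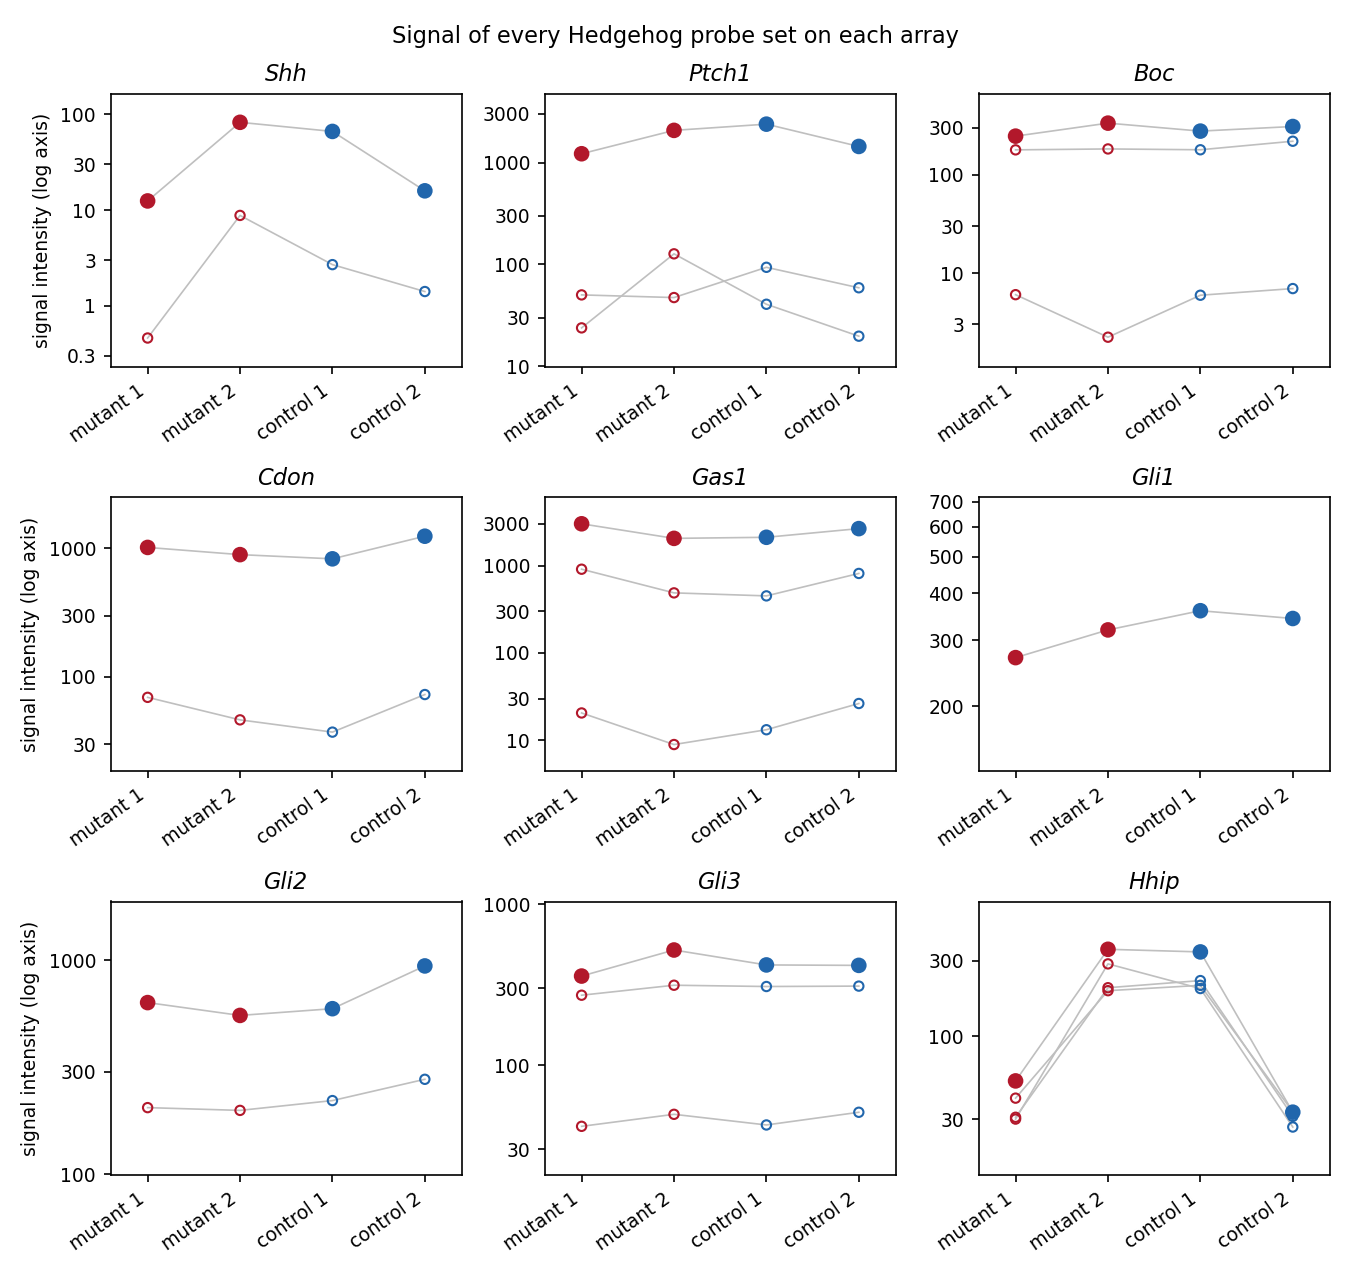
Signal intensity (log axis, different range in each panel) of every probe set of the 9 genes on the 4 arrays, with mutant arrays in red and control arrays in blue. Filled points are the probe set with the highest mean signal of each gene, open points the others, and lines join the arrays of one probe set. The 4 probe sets of Hhip lie between 194 and 354 on mutant 2 and control 1 and between 26.9 and 52.5 on mutant 1 and control 2.

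The co-receptors were less variable in their brightest probe sets, and Cdon and Gas1 took the opposite side of the pairs to Shh and Ptch1. Gas1, a lipid-anchored co-receptor, gave 3009 and 2049 on mutant 1 and mutant 2 and 2108 and 2650 on control 1 and control 2 with its brightest probe set. Mutant 1 and control 2 were the high arrays. The same held for the other Gas1 probe sets, 1448494_at, with 909 and 487 on the mutant and 450 and 813 on the control arrays, and the dim 1456322_at, with 20.5 and 8.93 and with 13.2 and 26.4. The log2 difference by label was 0.07 ± 0.23 (SE, n = 2 per group) in the brightest probe set, and 0.13 ± 0.40 in 1448494_at.

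Cdon, an immunoglobulin-family co-receptor, gave 1016 and 893 on the mutant arrays and 828 and 1242 on the control arrays. Its second probe set, 1421452_at, gave 69.3 and 46.3 on the mutant arrays and 37.2 and 72.9 on the control arrays. In both, control 2 was highest, mutant 1 next and control 1 lowest, and the log2 differences by label were -0.09 ± 0.22 and 0.08 ± 0.33 (SE, n = 2 per group). Boc, the relative of Cdon, gave 246 and 333 on the mutant arrays and 277 and 308 on the control arrays with 1427516_a_at. It gave 178 and 182 on the mutant and 179 and 218 on the control arrays with 1426869_at. Boc showed neither a label nor a pair order in these probe sets, with log2 differences of -0.03 ± 0.19 and -0.12 ± 0.16 (SE, n = 2 per group). Its dim probe set 1427517_at stayed at 6.95 or below on every array.

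Gli1, the Gli factor that is itself induced by the pathway, was the member gene whose mutant arrays lay below both controls in its only probe set. It gave 269 and 319 on mutant 1 and mutant 2 and 359 and 342 on control 1 and control 2. The means were 294 ± 35 in mutant and 351 ± 12 in control dermis (SD, n = 2 each). The log2 difference of -0.25 (95% interval -0.62 to 0.13) did not pass the test (limma adjusted p = 0.9999). It had the same sign within both pairs, -0.16 for mutant 2 minus control 1 and -0.33 for mutant 1 minus control 2. Gli1 did not follow the pair order that Hhip and the brightest Ptch1 probe set had.

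Gli2, the main Gli activator in mouse skin, was highest on control 2 in both probe sets. The probe set 1459211_at gave 633 and 551 on the mutant arrays and 593 and 938 on the control arrays, and 1446086_s_at gave 204 and 198 on the mutant and 221 and 277 on the control arrays. Its log2 difference was -0.33 ± 0.24 in the first, where the labels overlapped. It was -0.28 ± 0.17 in the second, where both mutant arrays lay below both controls (SE, n = 2 per group; limma adjusted p = 0.9999 in both). Gli3, which acts mainly as a repressor, gave 358 and 519 on the mutant arrays and 419 and 417 on the control arrays with 1456067_at. It gave 272 and 314 on the mutant and 308 and 310 on the control arrays with 1455154_at, and 41.8 and 49.6 and 42.6 and 51.1 with 1450525_at. Mutant 1 was the lowest array in all 3 Gli3 probe sets, and the log2 differences ran from -0.08 to 0.04.

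Hhip, which binds ligand at the cell surface and is induced by the pathway, had the widest spread of the 9 genes. Its brightest probe set, 1455277_at, gave 52.5 and 354 on mutant 1 and mutant 2 and 341 and 33.3 on control 1 and control 2. The signal on mutant 2 was 6.74 times that on mutant 1, and control 1 was 10.2 times control 2. The other 3 probe sets repeated this order of pairs, with ratios of 4.75 to 9.50 between the mutant arrays and 6.25 to 7.45 between the control arrays. By label, the brightest probe set averaged 203 ± 213 in mutant and 187 ± 217 in control dermis (SD, n = 2 each). Its log2 difference was 0.26 (95% interval -2.86 to 3.39; limma adjusted p = 0.9999).

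Within the pairs, Hhip differed by 0.05 in log2 for mutant 2 minus control 1 and 0.47 for mutant 1 minus control 2. The authors' deposited table lists 1 of the 23 probe sets, 1437933_at of Hhip, as 20.9 times higher in mutant. The same probe set gave 30.2 and 286 on the mutant arrays and 200 and 26.9 on the control arrays in the deposited signals, so that fold is not seen between the labels. Its signal on mutant 2 was 9.50 times that on mutant 1, and control 1 was 7.45 times control 2. These ratios are smaller than the listed fold, which came from GCRMA values and not from these signals. In log2 the difference of 1437933_at by label was 0.30 ± 1.15 (SE, n = 2 per group). In the authors' deposited table, 0.215% of all probe sets are higher and 0.124% lower in mutant, and the authors chose that list on these arrays.

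**Figure D2:**
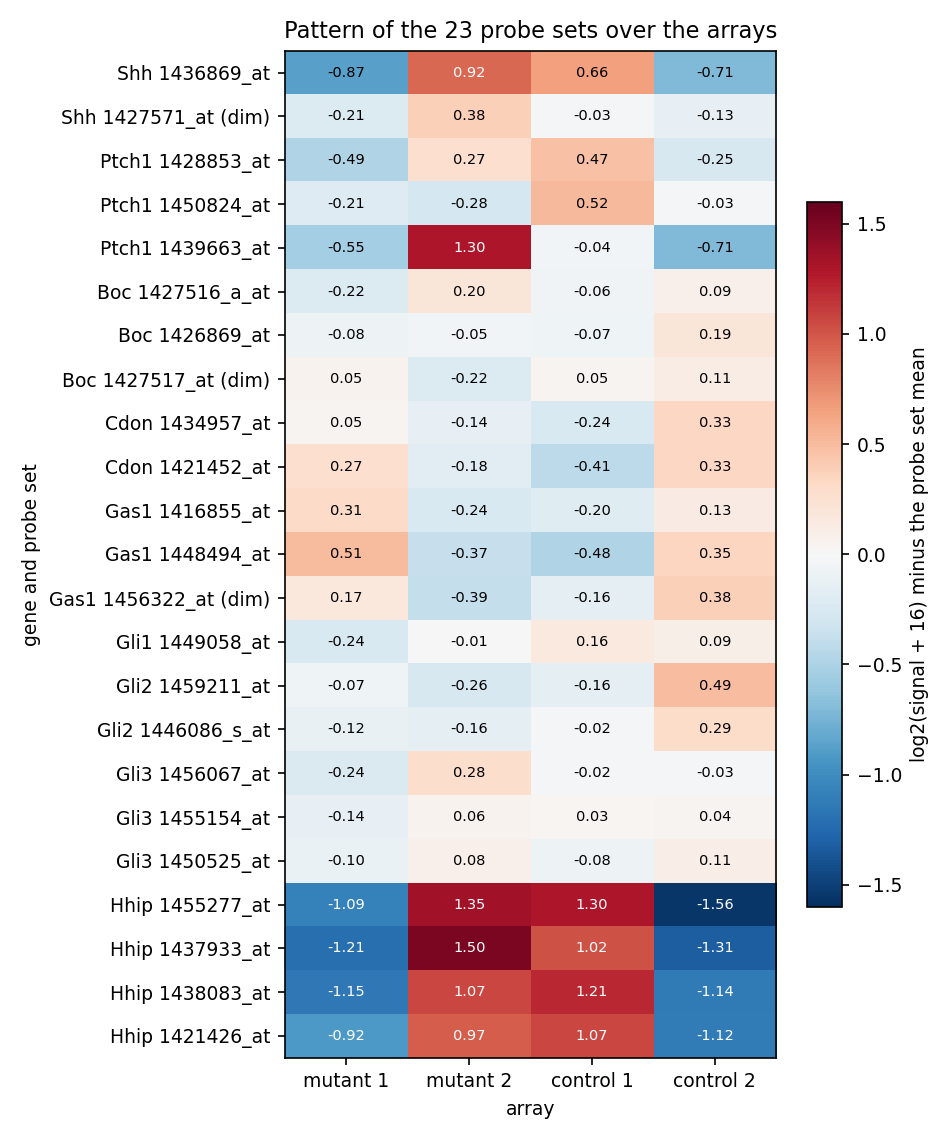
Pattern of the 23 probe sets over the 4 arrays, as log2(signal + 16) minus the mean of the probe set, with genes in the order of ligand, receptor, co-receptors, Gli factors and antagonist. Probe sets marked dim were under the filter and not tested. Hhip and the brighter Shh probe set are high on mutant 2 and control 1, and Gas1 and Cdon are high on mutant 1 and control 2.

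By label, no Hedgehog gene passed the test. Of all tested probe sets, 0% had a limma adjusted p under 0.05, and 208 of 22519 had an unadjusted p under 0.05. Of the 23 Hedgehog probe sets, 20 passed the filter on low signal, and 0 of these had an adjusted or an unadjusted p under 0.05. Both mutant arrays lay below both controls in 3 of the 20, in Gli1, Ptch1 and Gli2, where 11.8% of all tested probe sets did. Both lay above in 0 of the 20, where 8.69% of all tested probe sets did. The log2 difference of the 9 genes, by their brightest probe set, was above 0 for 4 and below 0 for 5. Their median was -0.03, beside -0.0042 over all 11413 tested genes, with a range of -0.33 (Gli2) to 0.26 (Hhip). A p that misses the threshold with 2 arrays per group does not show equal levels, as the intervals for Shh and Hhip show.

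Direction by label depended on single arrays. Hhip was 1.69 without control 1 and 1.48 without mutant 1, but -1.16 without control 2 and -0.95 without mutant 2 (log2, mutant minus control). Shh was 0.73 and 0.94 without control 1 and mutant 1, and -0.64 and -0.85 without control 2 and mutant 2. Ptch1 turned to 0.14 without control 1 and to 0.16 without mutant 1, and was -0.58 and -0.60 without control 2 and mutant 2. Gas1 went the other way, turning to -0.09 without control 1 and to -0.20 without mutant 1, and was 0.24 and 0.35 without control 2 and mutant 2. Cdon turned to 0.20 without control 2 and to 0.0018 without mutant 2, and was -0.38 and -0.18 without control 1 and mutant 1. Boc turned to 0.05 without control 2 and 0.18 without mutant 1, and was -0.10 and -0.23 without control 1 and mutant 2. Gli3 turned to -0.22 without mutant 2 and was 0.30 without mutant 1. Gli1 stayed below 0 without each array in turn, from -0.36 without mutant 2 to -0.13 without mutant 1. This was fixed by its order of arrays, with both mutant arrays below both controls, and is no further support. Gli2 also stayed below 0, from -0.65 without control 1 to -0.0048 without control 2. No limma adjusted p without an array was under 0.9996.

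**Figure D3:**
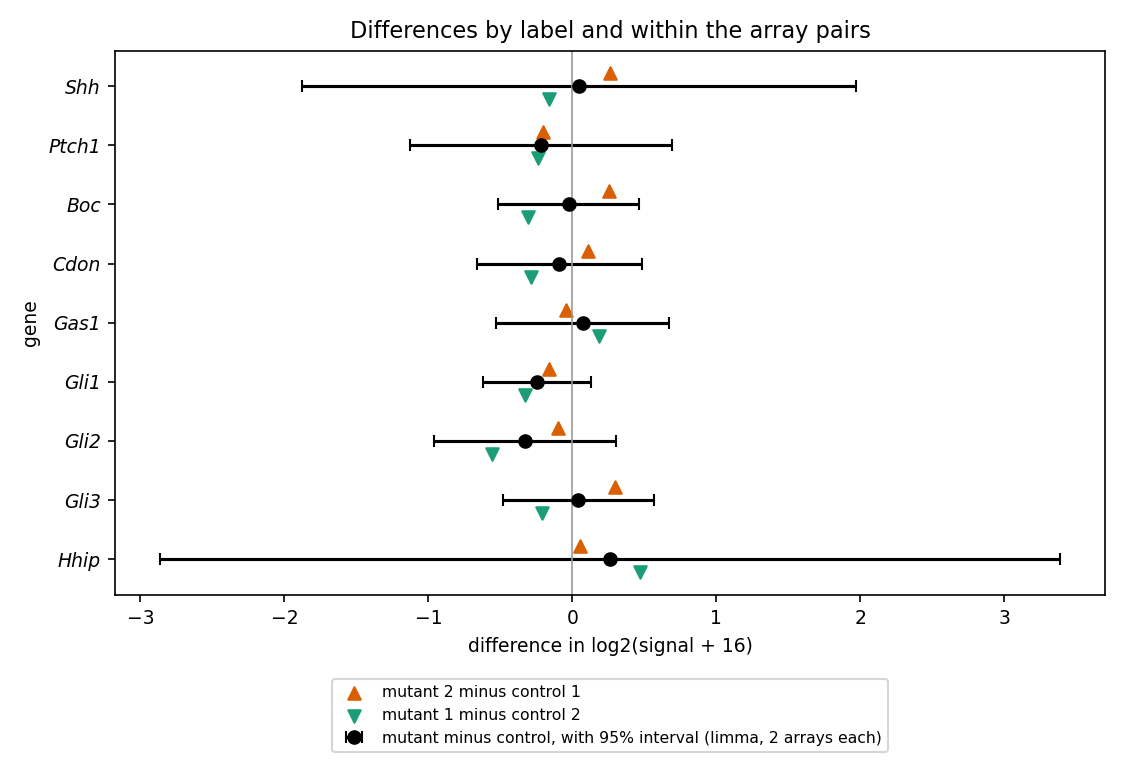
Differences in log2(signal + 16) of the 9 genes, from their brightest probe set. Black points are mutant minus control by label with the 95% interval of limma (2 arrays per group), upward triangles are mutant 2 minus control 1 and downward triangles mutant 1 minus control 2. All 9 intervals include 0, and Hhip has the widest, from -2.86 to 3.39.

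By array pair, mutant 2 and control 1 both lay above mutant 1 and control 2 in 8 of the 20 tested probe sets, where 26.4% of all tested probe sets did. The opposite order was found in 5 of 20, where 23.6% of all tested probe sets had it. Probe sets of one gene are not independent, and 4 of the 8 were of Hhip and 2 of Ptch1. By brightest probe set, 4 of 9 genes had the first order, beside 3376 of all 11413 tested genes. The opposite order was found in 3 of 9, beside 2730 of 11413. The first order with a gap of at least 1 in log2 between the lower of the high arrays and the higher of the low arrays was found in 5 Hedgehog probe sets, 4 of Hhip and 1 of Shh. Of all tested probe sets, 1.23% had such a gap, and 0.737% had one in the opposite order, in which 0 Hedgehog probe sets had one. The gap was 2.38 for Hhip, 1.37 for Shh, 0.52 for Ptch1 and 0.0086 for Gli3, and in the opposite order it was 0.33 for Gas1, 0.18 for Cdon and 0.09 for Gli2. The range over the 4 arrays was 2.91 in log2 for Hhip, and 0.515% of tested probe sets had a range at least as wide. It was 1.79 for Shh, with 1.98% at least as wide, and 0.96 for Ptch1, with 8.27%. By their brightest probe sets, the remaining members ranged over 0.75 or less, and 44.2% of tested probe sets were at least as wide as Gli1. Some other probe sets were wider, with 0.99 for 1448494_at of Gas1 and 2.00 for 1439663_at of Ptch1. These orders describe 4 arrays and carry no p.

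Markers of other cell types also moved between arrays. All 9 measured hair shaft markers had mutant 2 and control 1 above the other arrays, beside 26.4% of all tested probe sets. The list and the pairing were chosen with earlier results of these data known, so this count is a description only. Hhip and Shh had the same order. The summed signal of the hair shaft markers was 52.0 and 3575 on mutant 1 and mutant 2 and 3153 and 46.9 on control 1 and control 2. Their lowest signals were near 0 (0.195). The 5 measured markers of placode and follicle epithelium, the source of Shh in skin, summed to 315 and 401 on the mutant arrays and 508 and 232 on the control arrays. Of these 5, 2 (Edar and Sostdc1) had mutant 2 and control 1 above and 3 were mixed, and only Sostdc1 passed the filter. The 10 epidermal markers summed to 4912 and 1570 on the mutant arrays and to 1375 and 1140 on the control arrays. Their sum was highest on mutant 1. By label, 9 of these 10 lay above 0 and 1 below, with a median log2 difference of 0.94. In 5 of them both mutant arrays lay above both controls, beside 8.69% of all tested probe sets, and 0 passed the test.

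The dermal condensate and papilla list covers the mesenchyme that receives Shh. It summed to 2841 and 2898 on the mutant arrays and 3038 and 2793 on the control arrays. Of its 11 genes, 4 followed the pair order of Hhip and 5 the opposite one, beside 26.4% and 23.6% of all tested probe sets. In the order of Hhip the gaps in log2 ran from 0.39 to 1.58 (Alpl), with Foxd1 at 1.32. In the opposite order they ran from 0.03 to 0.71 (Tbx18). The 6 cartilage markers summed to 192 and 8701 on the mutant arrays and to 126 and 230 on the control arrays, so they were high on mutant 2 alone. Hedgehog ligand in cartilage is Ihh, and Ihh gave 11.04 and 40.9 on the mutant and 11.8 and 25.4 on the control arrays. The cartilage sum was lowest on control 1. Dermal fibroblast markers summed to 37075 and 24917 on the mutant arrays and 28602 and 33584 on the control arrays, and 5 of 7 had mutant 1 and control 2 above, the order of Gas1 and Cdon, beside 23.6% of all tested probe sets. Skeletal muscle markers had that order in 5 of 7 as well, and summed to 13665 and 6375 on the mutant and 2410 and 7194 on the control arrays. By label, 7 of these 7 lay above 0, with a median log2 difference of 1.30. In 2 of them both mutant arrays lay above both controls, beside 8.69% of all tested probe sets, and 0 passed the test. The 3 measured nerve and Schwann cell markers summed to 190 and 367 on the mutant and 273 and 153 on the control arrays, and the 5 endothelial markers to 2244 and 2642 and to 2766 and 2480. No marker of any list was at 0 on an array. In these bulk samples, more cells of a type and more RNA per cell cannot be told apart, and the part of these cell types in the Hedgehog values was not tested.

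**Figure D4:**
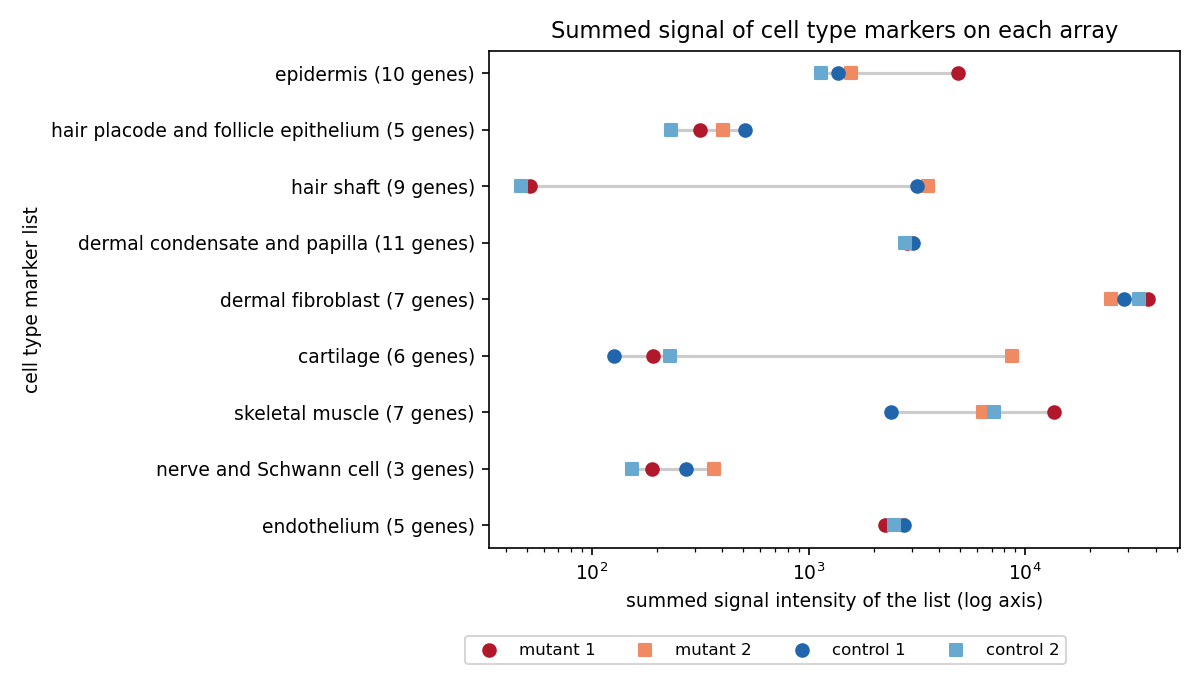
Summed signal intensity (log axis) of the measured genes of 9 cell type marker lists on each array, with mutant arrays in red and orange and control arrays in dark and light blue. The hair shaft list is high on mutant 2 and control 1, and the cartilage list on mutant 2.

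Other genes of the pathway were taken from lists of ligand processing, transduction, the cilium and further targets. None of the 33 tested genes of these 4 lists passed the limma test in either direction. For comparison with each list, 5558 of all 11413 tested genes had a difference above 0 and 5855 below. In the ligand list, 5 of 7 genes were tested, and 7 of 7 differences were above 0, with a median of 0.10. Scube proteins help release the lipid-modified ligand. Scube3 gave 12.2 and 133 on the mutant and 113 and 12.1 on the control arrays, the order of Hhip, and the authors' deposited table lists it as 12.4 times higher in mutant. Scube1 gave 10.4 and 38.9 on the mutant and 43.3 and 7.96 on the control arrays, in the same order, and was under the filter. Scube2 had the opposite order, with 231 and 68.9 on the mutant and 36.0 and 334 on the control arrays. Scube family members thus lay on both sides of the pairs, with log2 differences by label of 0.01 to 0.10. Hhat, which attaches palmitate to the ligand, gave 45.2 and 73.5 on the mutant and 51.3 and 44.4 on the control arrays. Disp1, which exports it, gave 201 and 189 on the mutant arrays and 174 and 186 on the control arrays.

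Signal transducers had a median range over the arrays of 0.32 in log2, beside 0.34 over all tested genes. Smo, the transducer that Ptch1 inhibits, gave 489 and 559 on the mutant and 529 and 551 on the control arrays, a log2 difference of -0.04 ± 0.13 (SE, n = 2 per group). Sufu, which holds Gli proteins in the cytoplasm, gave 239 and 189 on the mutant and 168 and 268 on the control arrays, in the pair order of Gas1. In this list, 13 of 16 genes were tested, and 4 measured genes lay above 0, 10 below and Sufu at 0.00, with a median of -0.04. The largest differences were those of Ulk3, a kinase of the pathway, at -0.29 ± 0.21, and of Mgrn1, a ubiquitin ligase that lowers Smo, at -0.21 ± 0.14. Lrp2, an endocytic receptor, differed by -0.14 and was under the filter. After Sufu, Ulk3 and Evc2, a ciliary partner of Smo, varied most over the arrays, with Evc2 at 127 and 177 on the mutant and 147 and 142 on the control arrays.

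The cilium list had 8 of 10 genes tested, 5 above and 3 below 0, with a median of 0.04. Its genes had mutant 2 and control 1 above in 6 of 8, beside 26.4% of all tested probe sets, and 2 were mixed. The gaps in log2 were small, from 0.09 (Dync2h1) to 0.42 (Kif3a), beside 2.38 for Hhip. Ift172, a carrier protein of intraflagellar transport, gave 184 and 318 on the mutant and 248 and 196 on the control arrays. Kif3a, a motor subunit, gave 240 and 325 on the mutant and 354 and 218 on the control arrays, and Dync2h1, the retrograde motor, 90.0 and 131 and 119 and 110. By label, Cep164, which anchors the cilium, differed by -0.16 ± 0.15 and Tulp3, which traffics receptors into it, by 0.15 ± 0.12.

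Of the further targets, 7 of 12 genes were tested, and 1 measured gene lay above 0 and 9 below, with a median of -0.16. Among the tested targets 1 lay above 0 and 6 below, where 5855 of all 11413 tested genes lay below. Foxf1, Foxf2 and Foxl1 were under the filter. Mycn, a growth regulator, gave 125 and 103 on the mutant arrays and 144 and 161 on the control arrays, so both mutant arrays lay below both controls. Its log2 difference of -0.37 ± 0.17 did not pass the test (limma adjusted p = 0.9999). Sfrp1, a Wnt antagonist, gave 135 and 382 on the mutant and 623 and 252 on the control arrays, with -0.75 ± 0.61 by label (SE, n = 2 per group). Within the pairs its difference was -0.68 for mutant 2 minus control 1 and -0.83 for mutant 1 minus control 2. With these pairs as a block, 108 of 22519 tested probe sets passed the threshold, and 1 gene of the list. The pairing was picked from these data, so these counts are no evidence of a difference by label. Sox9, the exception above 0, gave 29.4 and 126 on the mutant and 74.9 and 27.8 on the control arrays, and it is also a cartilage gene. Foxf1, a forkhead target in mesenchyme, was under the filter and ranged over 0.84 in log2. Of the 10 measured targets, 6 had the pair order of Hhip and 1, Ccnd1, the opposite one, beside 26.4% and 23.6% of all tested probe sets. The 6 were Foxf1, Sfrp1, Sox9, Snai1, Ccnd2 and Bcl2, with gaps in log2 from 0.01 (Bcl2) to 1.00 (Sox9).

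**Figure D5:**
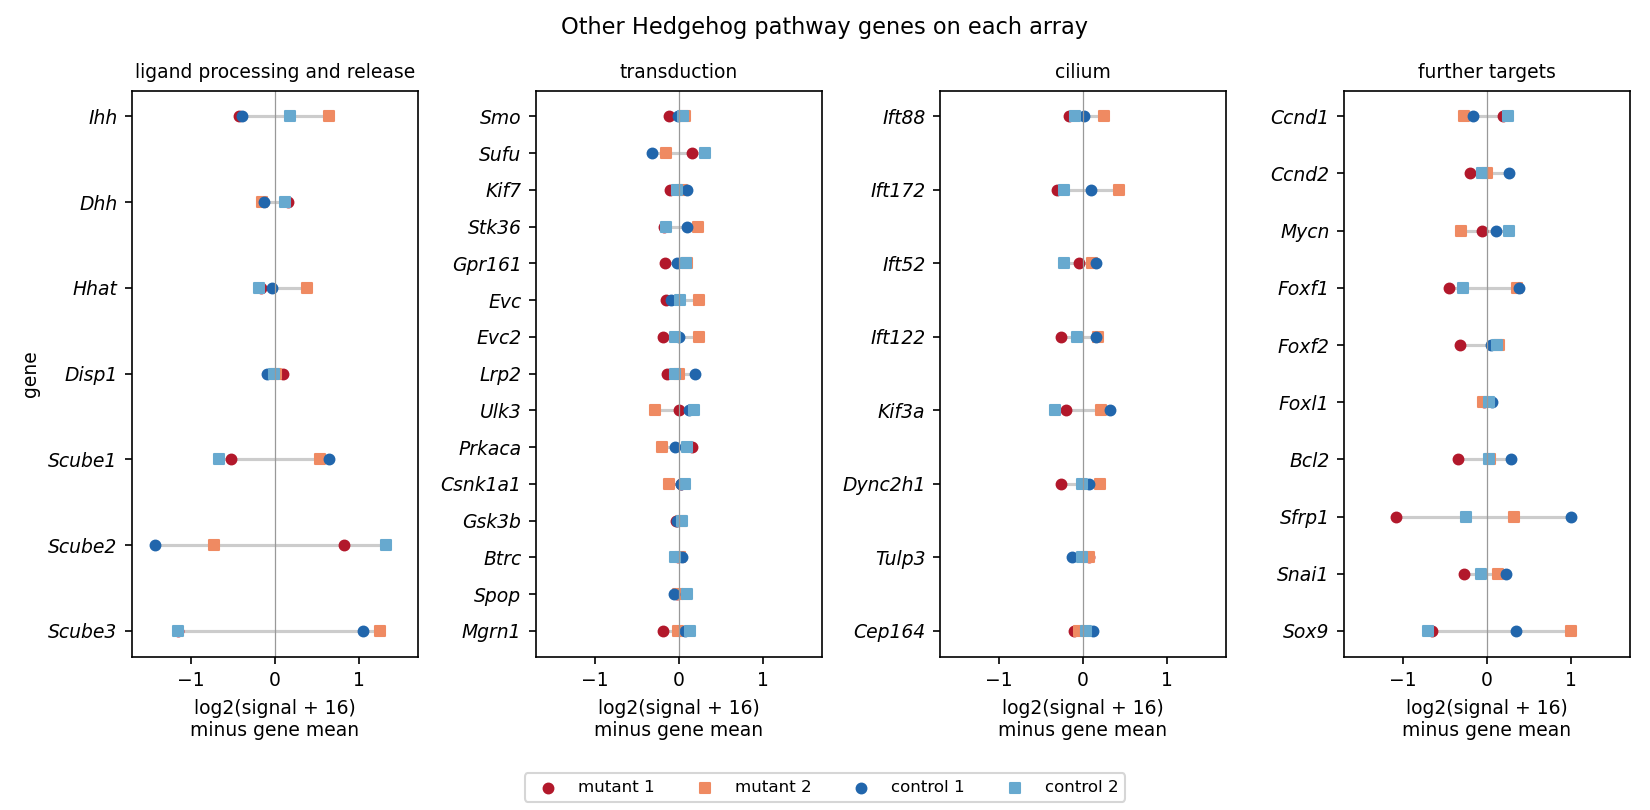
Other Hedgehog pathway genes on each array, as log2(signal + 16) minus the mean of the gene, in 4 lists, with mutant arrays in red and orange and control arrays in dark and light blue. The Scube genes, Sfrp1 and Sox9 spread the most, while Smo and most transducers lie near 0.

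The genes nearest to each Hedgehog gene were found by the Euclidean distance between log2(signal + 16) values over the 4 arrays, each gene centred on its mean. With 4 arrays this is a description. Hhip was nearest to Krt81, a hair keratin, at 0.23, followed by Adhfe1, a metabolic enzyme, at 0.27 and by Lgr6, an R-spondin receptor found in hair follicle epithelium, at 0.30. Krt81 gave 49.5 and 421 on the mutant and 365 and 39.6 on the control arrays. Shh was nearest to St3gal1 (0.14), a sialyltransferase, Col25a1 (0.14), a membrane collagen, and Aldh1a2 (0.15), which makes retinoic acid. Ptch1 was nearest to Flrt2 (0.06), Prss12 (0.08) and Egr2 (0.09), a zinc finger factor. The nearest genes to Gas1 were Rhoj, Spc25 and Tubb6 (0.02 to 0.04), and to Cdon Cdr2l, Sec16a and Sipa1l3 (0.02 to 0.04). Gli1 lay nearest to Llgl1, Pex26 and Helz2 (0.02 to 0.03), and Gli2 to Abhd16a, Brpf3 and Crtc3 (0.07). Boc lay nearest to Tsc1, Gpsm1 and Pxylp1 (0.03 to 0.04) and Gli3 to Bpnt2, Ss18l1 and Adcy4 (0.04 to 0.05). None of the 9 Hedgehog genes was among the 3 nearest of another.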

How the data were processed

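Dermal RNA of 4 embryos was measured on Affymetrix mouse arrays, 1 array per embryo. The deposited files hold linear signal intensity, 1 value per probe set and array, for which GCOS and MAS5 are named per the submitters' processing notes, without versions. The authors had scaled the intensity values per array, and no further normalization was applied. The authors' deposited table gives a fold, the ratio of mutant to control, from GCRMA values. Its filters were a Present flag on 2 or more arrays, a Welch test with an uncorrected p-value cutoff of 0.01 and a 2-fold difference, per the file headers. Its columns per embryo were not used.

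Of 45101 probe sets, 64 array controls were left out. In the annotation, 34958 probe sets name 1 gene, 932 name several and 9211 are unnamed here. A look-up by gene number in RefSeq (GRCm38.p6) matched 34754 and altered 0 symbols. Testing took in the 22519 probe sets, for 11413 genes, whose mean log2(signal + 16) reached the median of 5.515. limma 3.58.1 (lmFit, then eBayes with trend) under R 4.3.3 compared mutant with control, two-sided, with Benjamini-Hochberg adjustment over all tested probe sets and a threshold of 0.05. Where a gene has several probe sets, the one of highest mean signal stands for it. Differences on this scale understate those of dim probe sets. Precision is limited by the number of arrays. The test was checked on simulated data, with independent noise of the same spread for every probe set and no array pairs. That check does not cover the pair order seen on these arrays. Correlation between mutant 1 minus mutant 2 and control 1 minus control 2 over tested probe sets was -0.62. Arrays of the same label number thus tended not to move together, and whether embryos were paired was not tested.

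All members were described. Of each pathway list, the text names the 3 measured genes with the largest difference and the 3 with the largest range, and Smo and Sufu. The 3 nearest genes of each member were taken among tested genes whose range was at least 0.5 times the member's. Members and lists were chosen with earlier results of these data known, and list genes outside the rule were named after their values were seen. Alternatives were other pseudocounts, filters, normalizations, blocks, the methods' t-test and leaving out each array. Tables and plots were made in Python 3.11.15 (pandas 2.3.3, numpy 2.4.6, matplotlib 3.10.9).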

Additional observations from a re-analysis of the deposited data

How the results depend on the processing

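The count of probe sets past the threshold was 0 under pseudocounts of 1 and 64, without a filter, at a stricter filter, with quantile or median-centred values, without an intensity trend, over the mean of a gene's probe sets and with the label numbers as a replicate block (0). Without 1 array it ran from 0 to 1, with 1 without mutant 2. The methods' t-test at its unadjusted threshold with a 2-fold difference gave 3, and 0 after Benjamini-Hochberg adjustment. The crossed replicate block, a pairing of mutant 2 with control 1 and of mutant 1 with control 2 that was picked from these data, gave 108 probe sets, and 1 gene of the further targets list. The lowest limma adjusted p of a Hedgehog gene there was 0.879 (Gli2). As the block was picked from these data, its counts are no evidence of a difference by label.

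The median difference of the 9 genes lay between -0.23 and 0.16 without 1 array. Directions of single genes turned for Shh at a pseudocount of 1 (-0.0080). With the mean of all probe sets of a gene they turned for Ptch1 (0.0138), Gas1 (-0.0048) and Gli3 (-0.0199). The cause was not tested. Without 1 array, Shh ran from -0.85 to 0.94, Ptch1 from -0.60 to 0.16, Boc from -0.23 to 0.18, Cdon from -0.38 to 0.20, Gas1 from -0.20 to 0.35, Gli3 from -0.22 to 0.30 and Hhip from -1.16 to 1.69. Gli1, from -0.36 to -0.13, and Gli2, from -0.65 to -0.0048, kept their sign under every alternative run. For Gli1, both mutant arrays lay below both controls, so leaving out an array could not turn the sign. Filters, the intensity trend and the blocks do not change a difference either. The kept sign is therefore no further support. The p-values rest on 2 arrays per group, or on 1 against 2 where an array was left out, with the lone array assumed to vary like the others. Shh and Hhip are below the stricter filter and have no value there.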
